A study of Mus musculus with 31 samples.

Results

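The genes described here are 34 enzymes that make, salvage and phosphorylate nucleotides, out of 60172 genes listed in any of 3 count tables of Panc02 cells. They are given by name, for their place in the pathway, by a rule that uses no measured value, and fall into 5 step classes. These are 12 enzymes of purine de novo synthesis, 5 of pyrimidine de novo synthesis, 7 of deoxynucleotide synthesis, 6 of salvage and 4 nucleotide kinases. All 34 had enough counts to be tested in each table.

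Panc02 is a murine pancreatic adenocarcinoma cell line, and RNA was sequenced from 31 samples that the study's methods describe as this line. The labels of the 10 rescue samples instead give a different line name for each, counting up from Panc03 to Panc12, and they were treated here as Panc02. In the media table, WT spheroids in Matrigel were kept in control medium (Ctrl), in medium conditioned by untreated macrophages (M0-CM) or in medium conditioned by macrophages treated with IFNγ and lipopolysaccharide (M1-CM), with 3 samples each. In the culture table, WT and Cxcl5-/- cells were grown in 2D or in 3D without macrophage medium, with 3 samples each. In the rescue table, all samples were grown in 3D: 2 of WT cells, 2 of Cxcl5-/- cells, 3 of Cxcl5-/- cells overexpressing a mutant Hif1a (Hif1aOE Cxcl5-/-) and 3 of Cxcl5-/- cells overexpressing Myc (MycOE Cxcl5-/-). Cxcl5, a chemokine of neutrophils, was targeted with Cas9 from a lentiviral vector under puromycin selection, and whether the cells were a clone or a pool is not given in the sources used here. Both overexpressing lines carry the Cxcl5-/- genotype of their controls, and their transgenes came from a retroviral vector.

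Purine de novo synthesis builds the base on ribose phosphate, from phosphoribosyl pyrophosphate to inosine monophosphate, which then branches to AMP and GMP. Pyrimidine de novo synthesis makes the ring before it joins the ribose and leads through UMP to CTP. Ribonucleotide reductase and thymidylate synthase turn these products into DNA precursors, salvage enzymes recover free bases and nucleosides, and nucleotide kinases add the remaining phosphates. Many of these enzymes are known to be higher in proliferating cells and to be targets of MYC, which binds the letters CACGTG.

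Levels are given as counts scaled to library size (CPM) after edgeR's TMM scaling, and differences as log2 fold changes with their SE. A gene was called where the Benjamini-Hochberg adjusted p of edgeR's quasi-likelihood test, over all genes tested in its table, was under 0.05. Shares of all genes called were counted for this fit alone, and under no other scaling. Total counts ran from 41542533 to 78498230 per sample, and the lowest level of any member in any library was 3.69 CPM, of Dctd. The study's methods state biological replicates and independent experiments in general, and neither they nor the labels say which RNA samples came from separate cultures, so that p-values measure the spread between these samples, part of which may be technical.

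The labels were checked by the targeted genes. Cxcl5 stood at 28.5, 24.5 and 28.0 CPM in 3D WT while the libraries labelled 3D Cxcl5-/- had 65.5, 40.9 and 45.4 CPM, which is higher and against what the label would give for a lost transcript. An edit by Cas9 need not remove the transcript, so that this level does not test the edit. The study's methods state that the knockout was checked by immunoblot. Hif1a, which the edit did not target, stood at 335.9 to 407.2 CPM in 3D WT and at 139.9 to 175.4 CPM where the label was 3D Cxcl5-/-, and was likewise lower in rescue Cxcl5-/- than in rescue WT, at 133.4 and 143.9 CPM against 303.5 and 323.8 CPM. For Cxcl5 in 2D the Cxcl5-/- libraries lay lower than WT, at 32.7 to 37.4 CPM against 45.6 to 49.1 CPM, and in the rescue table Cxcl5 was at 36.6 and 40.2 CPM against 64.2 and 67.7 CPM in WT. Myc was at 396.6 to 548.1 CPM in MycOE Cxcl5-/- and 20.0 to 22.3 CPM in rescue Cxcl5-/-. Hif1a was at 242.8 to 295.6 CPM in Hif1aOE Cxcl5-/- and 133.4 to 143.9 CPM in rescue Cxcl5-/-, yet MycOE Cxcl5-/- libraries had 240.9 to 270.9 CPM, so that the Hif1a level did not separate both overexpressing lines. Of the defining epithelial markers, Krt8 and Krt18 were detected in all libraries, while Epcam and Cdh1 were at 0 in 11 of 12 culture libraries. The rescue WT libraries stood apart, with counts in 43037 and 43048 genes against 26886 to 31338 in the other 8 rescue libraries, which bears on each comparison with rescue WT given here.

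Promoter sequences, of 250 bases before to 50 after each RefSeq start in GRCm38.p6, were found for 31 of the 34 members (40 promoters). The letters CACGTG, which read the same on both strands, stood in a promoter of 6 members against 8.09% of all 27025 genes in that table. Their sequences are shown because MycOE Cxcl5-/- cells are compared with Cxcl5-/- cells here, and capitals mark CACGTG. Each line gives the gene's own strand, with its position in the genome.
Atic, chr1:71557137-71557166, plus strand: ggacctcggggtCACGTGgggtcgacacgc
Paics, chr5:76951087-76951116, plus strand: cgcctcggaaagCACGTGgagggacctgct
Impdh2, chr9:108560314-108560343, plus strand: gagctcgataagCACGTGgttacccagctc
Nme1, chr11:93968273-93968302, minus strand: gctgcggggaacCACGTGaggccggggagc
Tyms, chr5:30073626-30073875, minus strand: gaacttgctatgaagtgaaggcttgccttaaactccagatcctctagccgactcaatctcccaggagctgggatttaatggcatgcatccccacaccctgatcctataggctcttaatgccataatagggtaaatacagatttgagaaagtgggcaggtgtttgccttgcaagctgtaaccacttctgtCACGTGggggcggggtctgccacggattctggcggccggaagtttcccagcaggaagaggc
Dtymk, chr1:93801935-93802184, minus strand: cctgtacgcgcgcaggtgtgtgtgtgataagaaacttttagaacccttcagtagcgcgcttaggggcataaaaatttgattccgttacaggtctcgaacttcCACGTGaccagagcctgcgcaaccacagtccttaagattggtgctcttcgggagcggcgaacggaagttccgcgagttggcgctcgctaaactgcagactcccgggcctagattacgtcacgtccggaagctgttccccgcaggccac

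A second promoter of Nme1 also held the letters. The shorter motif ACGTG, which HIF factors bind, was searched on both strands, is contained in CACGTG, and stood in promoters of 12 of the 31 members against 21.78% of genes. A match is a description of letters and not a site of binding.

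The most abundant member per length of exon in every group was Nme2, a nucleoside diphosphate kinase that makes triphosphates. In 2D WT its mean level was 393.1 CPM per kb, followed by Paics, a purine synthesis enzyme with both carboxylase and ligase activity, at 110.8 and Hprt, which salvages hypoxanthine and guanine, at 109.5. The lowest in 2D WT was Rrm2b, the small ribonucleotide reductase subunit known to be induced by p53, at 1.60 CPM per kb. The median of the 34 members was 25.9 CPM per kb in 2D WT, 15.6 in 3D WT and 10.9 in the libraries labelled 3D Cxcl5-/-. In the rescue table it was 12.7 in WT, 8.62 in Cxcl5-/-, 15.4 in Hif1aOE Cxcl5-/- and 17.5 in MycOE Cxcl5-/-.

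The summed level of the 34 members separated the culture groups except the 2 genotypes in 2D. It was 4503, 4364 and 4570 CPM in 2D WT and 4493, 4269 and 4132 CPM in 2D Cxcl5-/-, ranges that overlap. It was 2867, 2766 and 2685 CPM in 3D WT and 2117, 1841 and 1997 CPM where the label was 3D Cxcl5-/-, ranges that do not overlap with each other or with 2D. As raw shares of all counts the members took 0.446% to 0.454% in 2D WT, 0.220% to 0.252% in 3D WT and 0.214% to 0.232% in the libraries labelled 3D Cxcl5-/-, so that on that scale both 3D groups overlapped. The 10 most counted genes took 26.2% to 31.4% of counts in 3D WT and 17.8% to 26.9% in the libraries labelled 3D Cxcl5-/-, which moves the raw share but has less weight after TMM scaling.

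**Figure D1:**
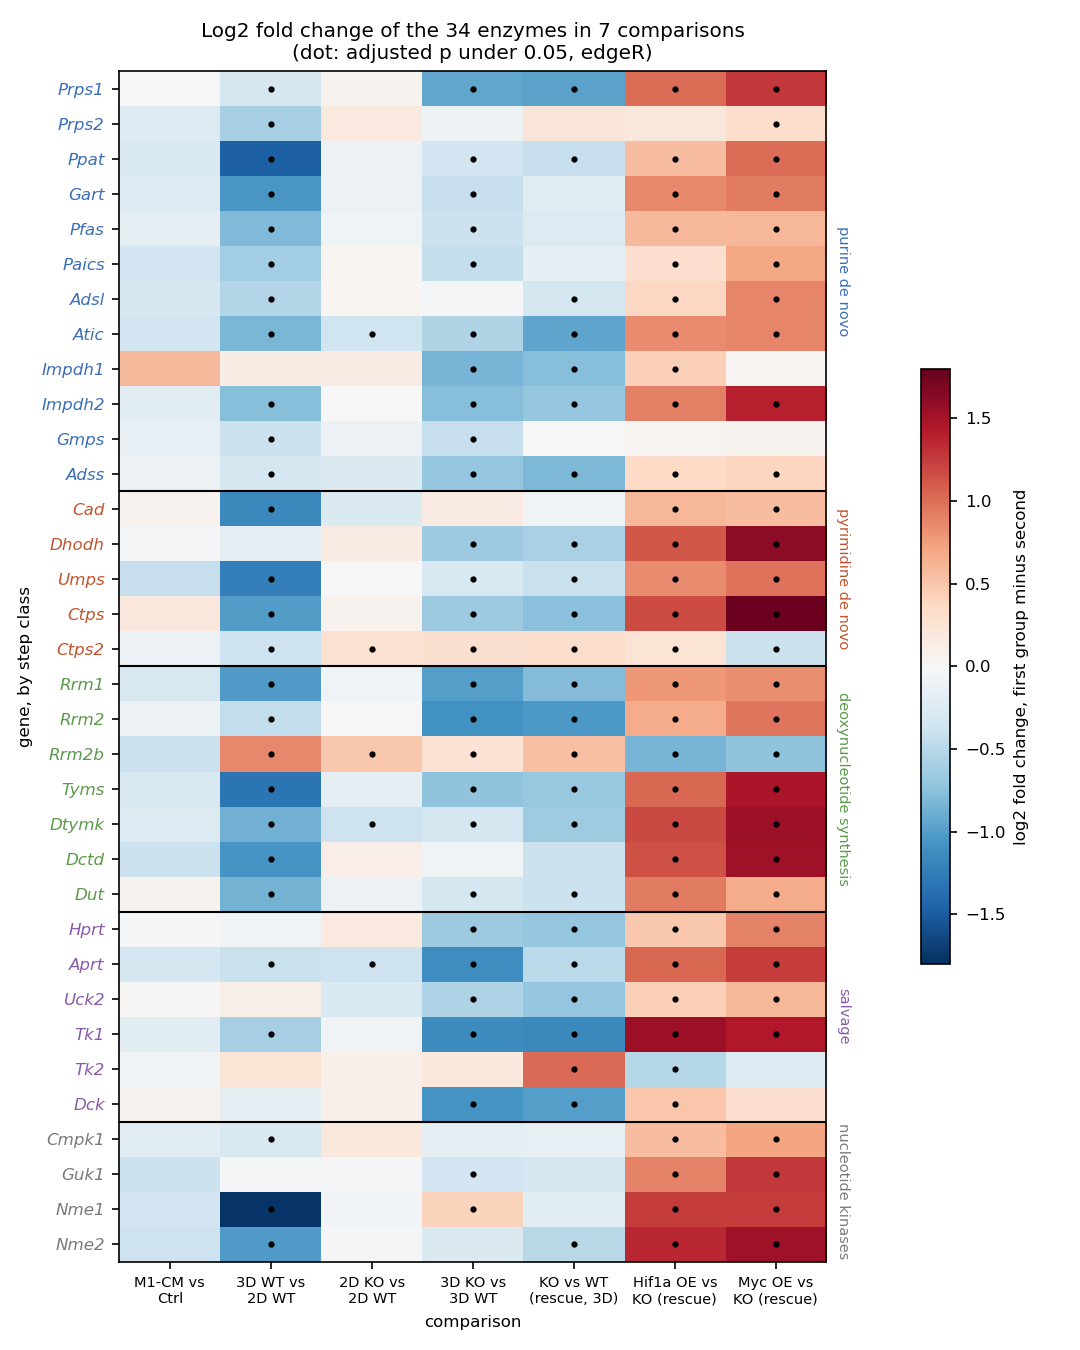
Log2 fold change of each of the 34 enzymes (rows, grouped by step class) in 7 comparisons (columns), first group minus second, in colour. A dot marks an adjusted p under 0.05 in edgeR. Blue cells with dots fill most of the columns for 3D WT against 2D WT and for the libraries labelled 3D Cxcl5-/- against 3D WT. Red cells with dots fill most of those for Hif1aOE and MycOE against Cxcl5-/-, and the M1-CM column has no dots.

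The comparison of 3D WT with 2D WT asks what growth in 3D does to these enzymes in unedited cells. De novo and deoxynucleotide enzymes were mostly lower in 3D, while the count for salvage enzymes depended on the scaling. Of the 34 members 26 fell and 1 rose in 3D, when 22.0% of all 21367 genes fell and 22.2% rose. The median log2 fold change was -0.60 over the members and 0.00 over all genes tested. In bulk samples, fewer cells of a type and less RNA of a gene per cell cannot be told apart. The direction of this split held under both other scalings, with 24 lower and 2 higher by DESeq2 size factors and 29 lower and 1 higher by library totals. S phase genes moved with the members: 14 of 14 on a list of replication and cell cycle genes fell, with a median of -1.04, and their summed level was 2395 to 2475 CPM in 3D WT against 4990 to 5116 CPM in 2D WT. Of the marker lists of other cell types, 3 of 5 fibroblast markers rose (median 3.04), with sums of 72.9 to 75.8 CPM against 24.6 to 26.6 CPM, and 4 of 5 tested macrophage markers rose (median 1.62), with sums of 42.2 to 46.5 CPM against 28.0 to 32.4 CPM. Of 4 tested epithelial markers 3 rose and 1 fell. Their part in the result was not tested.

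In purine de novo synthesis 11 of 12 enzymes fell in 3D WT, with a class median of -0.61. Ppat (ENSMUSG00000029246, chr5:76913249-76951578), the amidotransferase of the committed step, was at 76.0, 74.5 and 75.9 CPM in 2D WT and at 24.8, 30.9 and 25.8 CPM in 3D WT. Its 3D values all lay below its 2D values, and it fell by 1.47 ± 0.09 (SE, adjusted p = 2.71e-08). Gart, which carries several activities of the pathway in one protein, fell by 1.05 ± 0.09 on the log2 scale, and Atic, which closes the ring to inosine monophosphate, by 0.82 ± 0.08. Smaller decreases were seen for Adss, the adenylosuccinate synthetase of the AMP branch, at -0.31 ± 0.08, and Gmps, the GMP synthetase, at -0.39 ± 0.07. The exception was Impdh1, an IMP dehydrogenase of the GMP branch, at 0.13 ± 0.11 (adjusted p = 0.373). The call of Prps1, which makes phosphoribosyl pyrophosphate, at -0.30 ± 0.09, was lost in 7 of 13 other settings, and its value without 2D WT replicate 3 was -0.19 (adjusted p = 0.152). Ppat and Paics lie head to head with overlapping first exons, and whether reads were counted by strand is not stated, so reads from the overlap cannot be assigned with certainty.

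Pyrimidine de novo synthesis showed the lowest class median of the 5, -1.01, with 4 of 5 enzymes lower. Umps, which forms UMP, fell by 1.23 ± 0.09 on the log2 scale (adjusted p = 1.13e-07). Cad, the fused protein of the opening steps, went from 108.7, 106.6 and 111.3 CPM in 2D WT to 51.4, 44.9 and 50.2 CPM in 3D WT, with no overlap and a change of -1.16 ± 0.09. Dhodh, the mitochondrial dihydroorotate dehydrogenase, did not pass the test, with 21.4, 18.8 and 22.5 CPM in 2D WT against 20.3, 16.7 and 19.3 CPM in 3D WT. CTP synthases both fell, Ctps by 1.01 ± 0.08 and Ctps2 by 0.37 ± 0.07.

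Among the 7 deoxynucleotide enzymes 6 fell, with a class median of -0.87, and 1 rose. Tyms, the thymidylate synthase, had the greatest decrease of the class at -1.32 ± 0.08, from 90.5 ± 4.36 CPM in 2D WT to 36.3 ± 2.46 CPM in 3D WT (SD, n = 3). Dctd, the dCMP deaminase that supplies it, changed by -1.06 ± 0.13, and Rrm1, the large reductase subunit, by -1.02 ± 0.08. Against this, Rrm2b (ENSMUSG00000022292, chr15:37923952-37961318) was at 14.0, 15.7 and 14.1 CPM in 2D WT and 25.6, 29.9 and 24.4 CPM in 3D WT. It was the only member that rose with TMM scaling (2 rose with DESeq2 size factors), by 0.87 ± 0.10 (adjusted p = 6.49e-06), with all 3D values above all 2D values.

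Salvage enzymes had a class median of -0.12 with TMM scaling, and 2 of 6 fell. With library totals 4 of 6 were called lower and the median was -0.34, and with DESeq2 size factors 2 were called lower and 1 higher, with a median of -0.05. The 2 called lower with TMM scaling were Tk1, the cytosolic thymidine kinase that is high in S phase, at -0.60 ± 0.08 and Aprt, the adenine phosphoribosyltransferase, at -0.40 ± 0.10. The others did not pass the test with TMM scaling: Hprt -0.07 ± 0.09, Dck, the deoxycytidine kinase, -0.17 ± 0.11, Uck2, a uridine and cytidine kinase, 0.11 ± 0.11, and Tk2, the mitochondrial thymidine kinase, 0.24 ± 0.10 (adjusted p = 0.0514). The difference between salvage and the other classes was not tested.

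Of the nucleotide kinases 3 of 4 fell. Nme1 (ENSMUSG00000037601, chr11:93956979-93968521), a nucleoside diphosphate kinase, had the greatest decrease of all members, from 204.4, 189.6 and 197.4 CPM in 2D WT to 56.6, 71.2 and 45.6 CPM in 3D WT. The groups were far apart and the change was -1.77 ± 0.14 (adjusted p = 3.31e-07). Its neighbour Nme2 changed by -1.02 ± 0.12. Both genes lie next to each other on the same strand and are close in sequence, so that reads may have been split between them. Guk1, the guanylate kinase, did not pass the test at -0.02 ± 0.11, and Cmpk1, the UMP and CMP kinase, at -0.29 ± 0.09 was called but lost its call in 8 of 13 other settings.

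**Figure D2:**
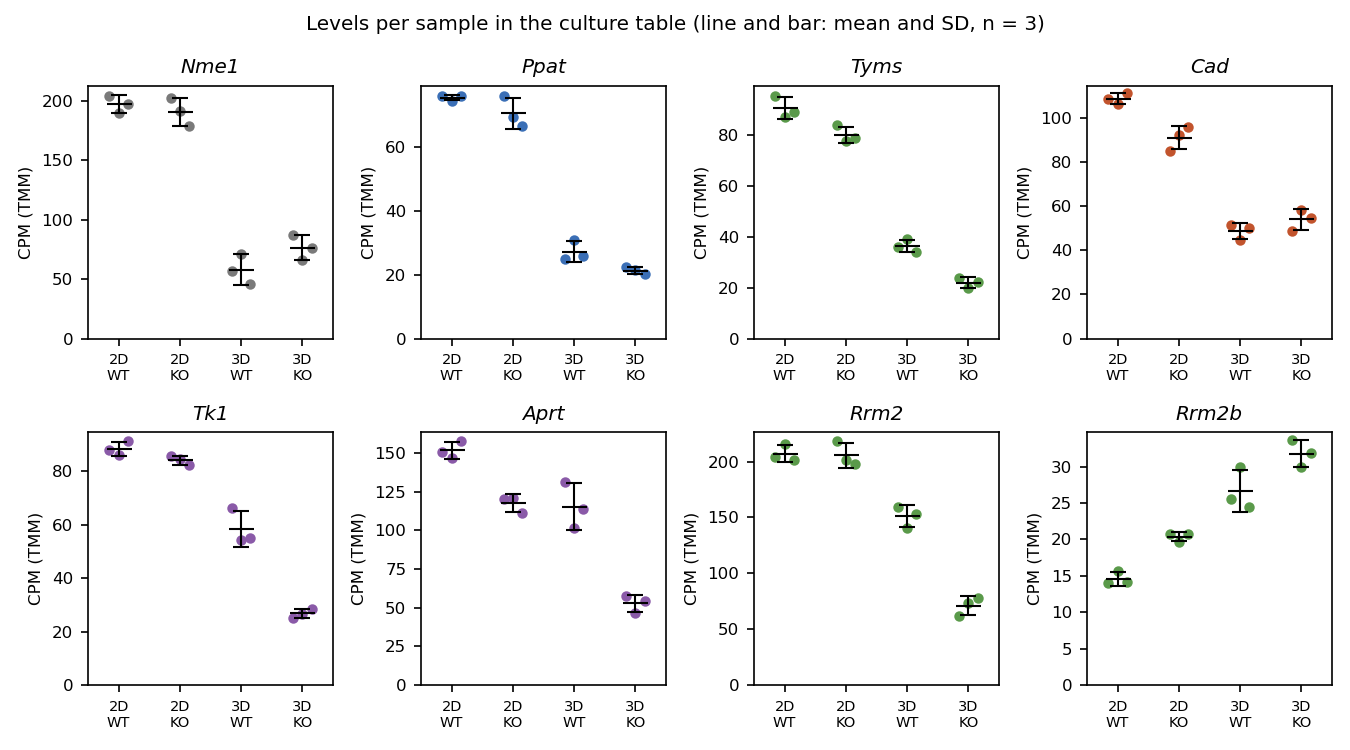
TMM-scaled level in CPM (vertical axis) of 8 enzymes in each sample of the culture table (points, coloured by step class), with the mean and SD of 3 samples. For Nme1, Ppat, Tyms and Cad both 3D groups lie below both 2D groups, and for Tk1, Aprt and Rrm2 the libraries labelled 3D Cxcl5-/- lie below all others.

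The 2D comparison of Cxcl5-/- with WT gave 2 members higher and 3 lower, when 3.86% of all genes were higher and 3.17% lower, and a median of -0.02 over members as over all genes. Rrm2b was at 20.8, 19.6 and 20.7 CPM in 2D Cxcl5-/- and 14.0, 15.7 and 14.1 CPM in 2D WT, a rise of 0.48 ± 0.10 (adjusted p = 0.00637). It was the single call that held in every setting. The others were Ctps2 at 0.27 ± 0.07, Atic at -0.36 ± 0.08, Dtymk, the thymidylate kinase, at -0.37 ± 0.10 and Aprt at -0.37 ± 0.10. Leaving out any 1 of the 6 libraries reduced the 5 calls to 1 or 2, and the fit with no filter on low counts gave 1 higher and 1 lower. Where a call was lost by leaving out a library, the values were -0.31 to -0.36 for Atic, -0.31 to -0.37 for Dtymk, -0.30 to -0.37 for Aprt and 0.26 to 0.30 for Ctps2. In 2D the sums of 4 lists did not overlap between the genotypes, while those of acinar and endothelial markers did. The former were 10.2 to 11.8 CPM in Cxcl5-/- against 24.6 to 26.6 CPM in WT for fibroblast markers (0 called higher and 2 of 5 lower), 48.7 to 49.3 CPM against 28.0 to 32.4 CPM for macrophage markers (2 of 5 tested higher and 0 lower), 445.3 to 481.7 CPM against 538.0 to 588.2 CPM for epithelial markers (1 of 4 tested higher and 2 lower) and 4516 to 4623 CPM against 4990 to 5116 CPM for S phase genes (0 higher and 2 of 14 lower), and what these genes contribute was not tested.

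Comparing the libraries labelled 3D Cxcl5-/- with 3D WT asks how these enzymes differ between the edited and unedited lines in spheroids. The study's methods describe no vector control for WT, so loss of the chemokine cannot be told apart from the vector and the selection. Tk1, Aprt and Dck of salvage, the reductase subunits Rrm1 and Rrm2, and Prps1 had the greatest decreases. Of the 34 members 24 were called lower and 3 higher, against 25.3% and 19.7% of all genes. The median was -0.41 over the members and -0.04 over all genes. Scaling by library totals gave 13 lower and 8 higher, since it moved the median of all genes to 0.35 and that of the members to -0.02, while the members stayed 0.37 below all genes on either scale (-0.37). The share of all genes called with library totals was not counted, so these 13 and 8 have no background beside them. DESeq2 size factors also gave 24 lower and 3 higher. With library totals the class medians were -0.04 for purine synthesis and -0.47 for salvage, while those of pyrimidine synthesis (0.10), deoxynucleotide synthesis (0.06) and the nucleotide kinases (0.16) turned positive.

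Other genes moved with these calls. S phase genes were called lower for 13 of 14, with a median of -0.87, and their summed level was 1265 to 1397 CPM where the label was 3D Cxcl5-/- and 2395 to 2475 CPM in 3D WT. The 6 epithelial markers summed to 190.3 to 221.9 CPM against 838.7 to 1084 CPM, with Epcam and Cdh1 at or near 0, and 3 of 4 tested were called lower and 1 higher. The 5 fibroblast markers summed to 204.0 to 235.2 CPM against 72.9 to 75.8 CPM, yet 3 of them were called lower and 1 higher, with a median of -1.06. Most of the sum came from Pdgfra, which reached 224.6 CPM in this table, while none of the other 4 was above 39.1 CPM. Myc itself was at 9.12 to 11.4 CPM against 33.9 to 36.9 CPM. Their part in the result was not tested.

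Purine enzymes were called lower for 10 of 12 (median -0.42). Prps1 was at 45.0, 36.5 and 40.5 CPM in 3D WT and 21.5, 20.2 and 22.0 CPM where the label was 3D Cxcl5-/-, without overlap, and fell by 0.94 ± 0.10 (adjusted p = 3.53e-06). Its isozyme Prps2 kept 82.5, 77.0 and 78.2 CPM against 83.2, 83.5 and 85.8 CPM in 3D WT, a value of -0.09 ± 0.07 that did not pass the test. In the GMP branch both IMP dehydrogenases fell. Impdh1 went from 26.6, 24.0 and 23.5 CPM to 11.3, 16.3 and 13.7 CPM (-0.84 ± 0.12), and Impdh2 from 129.5, 113.0 and 117.2 CPM to 77.1, 64.2 and 70.8 CPM (-0.76 ± 0.10). Impdh2 has a processed copy, Impdh2-ps, that held 35.1% as many counts in this table, so its level is uncertain. The early steps gave smaller values, Ppat -0.35 ± 0.09, Gart -0.41 ± 0.09 and Pfas -0.39 ± 0.10, which became 0.03 for Ppat, -0.02 for Gart and 0.01 for Pfas with library totals. The calls of Paics, Gmps and Atic were also lost with that scaling, at -0.06, -0.02 and -0.15, so that 6 of the 10 calls in this class were lost with it. Library totals gave 4 enzymes of the class lower and 2 higher, Prps2 and Adsl, neither of which was called with TMM scaling.

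Pyrimidine synthesis was split. Ctps went from 78.6, 74.5 and 73.3 CPM to 50.8, 46.8 and 47.2 CPM, a decrease of -0.65 ± 0.08 with no overlap. Its isozyme Ctps2 went the other way, from 42.2, 40.4 and 42.3 CPM to 53.1, 47.9 and 52.0 CPM, and rose by 0.29 ± 0.07 (adjusted p = 0.00287). Dhodh fell by 0.66 ± 0.12, while Cad did not pass the test, with 49.0, 58.4 and 54.8 CPM against 51.4, 44.9 and 50.2 CPM in 3D WT. Umps was called at -0.27 ± 0.09, a value that turned to 0.10 with library totals. With that scaling 2 enzymes of the class were called higher, Ctps2 and Cad, and 2 lower.

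In deoxynucleotide synthesis the reductase showed the clearest change. Rrm2, the small subunit of S phase, was at 159.5, 140.5 and 153.2 CPM in 3D WT and 61.9, 73.1 and 78.1 CPM where the label was 3D Cxcl5-/-, a decrease of -1.09 ± 0.09 (adjusted p = 8.49e-07) without overlap. Rrm1 fell by 0.99 ± 0.08, from 207.5, 190.6 and 196.3 CPM to 99.5, 92.8 and 107.9 CPM. Rrm2b was called higher at 0.26 ± 0.10, with 33.6, 29.9 and 31.9 CPM against 25.6, 29.9 and 24.4 CPM, groups that touch. Its call was lost without 3D WT replicate 1 or 3 or without the libraries labelled 3D Cxcl5-/- replicate 1 or 3, where the adjusted p of edgeR was 0.118 to 0.217 and the value without 3D WT replicate 3 was 0.17. Dtymk and Dut, the dUTPase that keeps uracil out of DNA, were called at -0.32 ± 0.10 and -0.31 ± 0.10, and these became 0.07 and 0.06 with library totals.

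Salvage enzymes were called lower for 5 of 6, with the lowest class median in this comparison, -0.86. Tk1 (ENSMUSG00000025574, chr11:117815526-117826092) was at 66.3, 54.2 and 54.9 CPM in 3D WT and 25.2, 26.7 and 28.6 CPM where the label was 3D Cxcl5-/-. It fell by 1.13 ± 0.09 (adjusted p = 2.52e-07), the greatest decrease of the members. Aprt (ENSMUSG00000006589, chr8:122574635-122576909) went from 131.1, 101.2 and 113.4 CPM to 57.7, 46.8 and 54.2 CPM, with no overlap and a decrease of -1.12 ± 0.10. Dck changed by -1.06 ± 0.11, Hprt by -0.66 ± 0.09 and Uck2 by -0.56 ± 0.11. The call of Uck2 was lost with library totals, at -0.17 (adjusted p = 0.174). The mitochondrial Tk2 had 24.3, 22.3 and 22.9 CPM against 19.5, 21.6 and 20.0 CPM in 3D WT and did not pass the test at 0.19 ± 0.09 with TMM scaling. With library totals 4 enzymes of the class were called lower and 1, Tk2, higher.

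Nucleotide kinases showed 1 call in each direction with TMM scaling, and 2 higher and 0 lower with library totals. Nme1 was at 87.2, 66.0 and 75.8 CPM against 56.6, 71.2 and 45.6 CPM in 3D WT, groups that overlap, and was called higher at 0.40 ± 0.14 (adjusted p = 0.0309). Its call was lost without 3D WT replicate 1 or 3 or without those labelled 3D Cxcl5-/- replicate 1 or 3, with an adjusted p of 0.077 to 0.178 in edgeR, and the value was 0.23 without 3D WT replicate 3. Nme2 did not pass the test, at 228.9, 159.7 and 179.9 CPM against 220.3, 251.7 and 206.9 CPM. Guk1 was called lower at -0.34 ± 0.11, which turned to 0.03 with library totals. Without the library labelled 3D Cxcl5-/- replicate 2 the calls of Umps, Dtymk, Dut and Guk1 were lost, with adjusted p from 0.178 to 0.217 and values of -0.16, -0.18, -0.18 and -0.19.

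**Figure D3:**
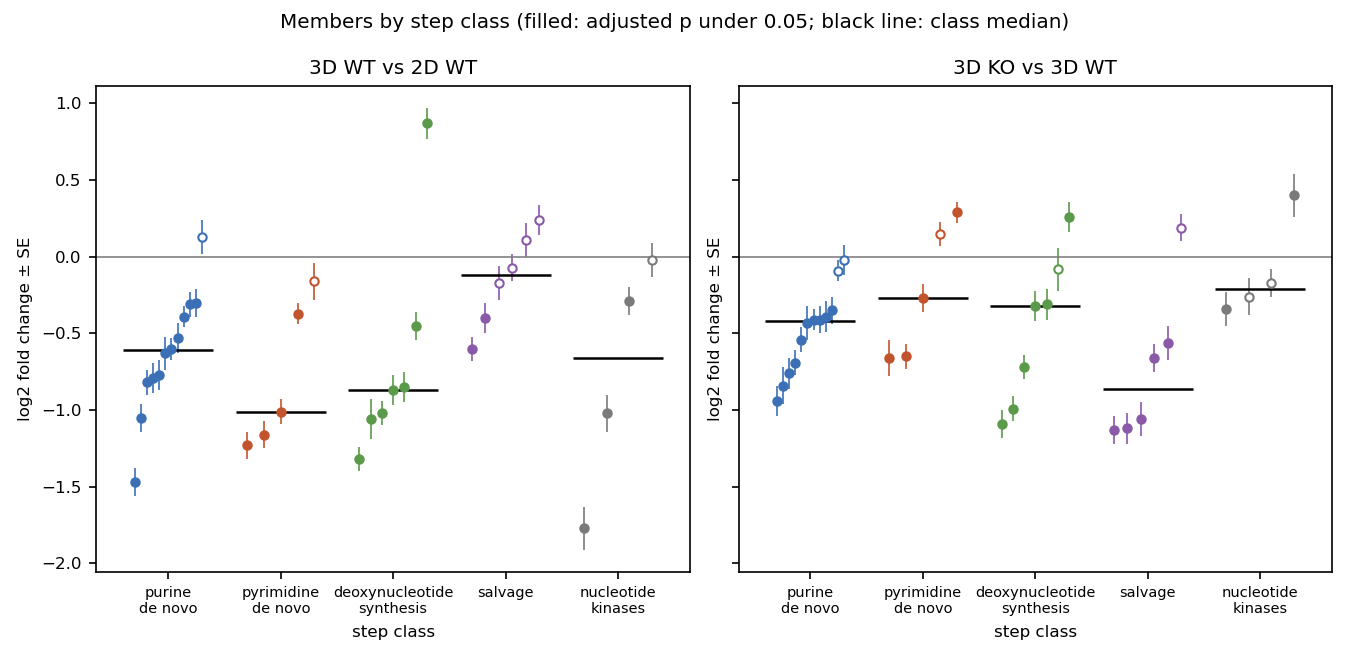
Log2 fold change ± SE (vertical axis) of each enzyme by step class (horizontal axis), for 3D WT against 2D WT on the left and 3D KO (the libraries labelled 3D Cxcl5-/-) against 3D WT on the right. Filled points had an adjusted p under 0.05 in edgeR and black lines are class medians. Pyrimidine synthesis has the lowest median on the left, -1.01, and salvage on the right, -0.86, by TMM scaling.

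Whether the genotype difference was itself larger in 3D than in 2D was tested as an interaction over the 12 culture libraries. The difference was lower in 3D for 16 members and higher for 1, against 16.1% and 11.1% of all genes, with a median of -0.31 over members and -0.05 over all genes. S phase genes were called lower in this interaction for 11 of 14 and higher for 1 (median -0.65), and 2 of 4 tested epithelial markers were called lower and 0 higher. Of 5 fibroblast markers 1 was called higher and 0 lower (median 3.76). Of 5 tested macrophage markers 1 was called lower and 0 higher (median -0.50). What these genes contribute was not tested. With library totals there were 10 lower and 5 higher, and the median turned to 0.06 over members and 0.32 over all genes, with salvage the one class whose median stayed below 0, at -0.43. Shares of all genes with that scaling were not counted. The greatest were Dck at -1.17 ± 0.15 (adjusted p = 0.000115), Rrm2 at -1.08 ± 0.13, Tk1 at -1.05 ± 0.12 and Prps1 at -1.01 ± 0.13. Salvage had 4 of 6 enzymes among the 16, purine synthesis 6 of 12, deoxynucleotide synthesis 3 of 7, pyrimidine synthesis 2 of 5 and the nucleotide kinases 1 of 4. Cad was the member called in the other direction, at 0.40 ± 0.12 (adjusted p = 0.0237), and lost its call in 9 of 18 other settings, all of them with a library left out.

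The libraries labelled Cxcl5-/- in 3D, against those labelled so in 2D, had 31 members lower and 2 higher, against 28.2% and 28.7% of all genes. The median was -1.08 over members and 0.11 over all genes. Rrm1 changed by -1.94 ± 0.08, Tyms by -1.86 ± 0.09, Ppat by -1.73 ± 0.09 and Ctps by -1.71 ± 0.08. The members that rose were Rrm2b at 0.64 ± 0.10 and Tk2 at 0.34 ± 0.09. Uck2, at -0.19 ± 0.11, was the member that was not called. Of the salvage enzymes Aprt fell by 1.15 ± 0.10 and Hprt by 0.90 ± 0.10. The call of Tk2 was lost without 2D Cxcl5-/- replicate 2 (adjusted p = 0.0525), and that of Guk1 in 7 of 13 other settings, with an adjusted p of 0.0522 to 0.144. S phase genes fell for 13 of 14 (median -1.79), from sums of 4516 to 4623 CPM to 1265 to 1397 CPM. Of the 5 fibroblast markers 4 were called higher (median 4.55), with sums going from 10.2 to 11.8 CPM to 204.0 to 235.2 CPM. Of 5 tested macrophage markers 3 were called higher and 1 lower (median 1.12), with sums of 48.7 to 49.3 CPM in 2D and 43.3 to 63.2 CPM in 3D, and of 4 tested epithelial markers 3 were called lower and 1 higher. Their part in the result was not tested.

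In the rescue table the comparison of Cxcl5-/- with WT repeats the 3D genotype contrast on separate samples. It gave 21 members lower and 3 higher, against 24.3% and 17.6% of all 28730 genes. The median was -0.46 over the members and -0.30 over all genes, and over genes averaging 1 CPM or more it was -0.53 over the members and -0.01 over all genes, with 24 lower and 3 higher. Of the 34 members 19 were called lower in both tables and 2 higher in both, Ctps2 and Rrm2b, while 0 were called in opposite directions. Of the 21058 Ensembl genes tested in both tables, 15.3% were called lower in both, 13.9% higher in both and 1.25% in opposite directions. A further 6 were called in the culture table only, 3 in the rescue table only and 4 in neither. These counts are with TMM scaling. With library totals 6 of the 19 lost their culture call (Ppat, Atic, Umps, Dtymk, Dut and Uck2), 4 of them with a value above 0, and the other 13 were called lower in both tables.

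Tk1 was again lower, at 21.8 and 19.8 CPM in rescue Cxcl5-/- and 45.5 and 47.3 CPM in rescue WT, a decrease of -1.16 ± 0.13 (adjusted p = 3.85e-05). Rrm2 changed by -1.04 ± 0.10, Dck by -0.99 ± 0.13, Prps1 by -0.97 ± 0.12 and Atic by -0.95 ± 0.09. Rrm2b was at 41.3 and 40.3 CPM against 28.1 and 28.0 CPM in WT, a rise of 0.54 ± 0.10 with no overlap. Tk2 was at 25.9 and 26.8 CPM against 13.7 and 12.3 CPM and rose by 1.02 ± 0.12 (adjusted p = 6.73e-05). In the culture table it was not called with TMM scaling but was called higher with library totals. Nme1, called higher in the culture table, was not called here, at -0.21 ± 0.16. As in the culture table, S phase genes were called lower, here for 12 of 14 (median -1.10), and the epithelial markers summed to less, 258.0 and 271.7 CPM against 822.4 and 864.3 CPM in WT. Unlike there, 4 of 5 fibroblast markers were called higher and 0 lower (median 3.26), with sums of 269.6 and 271.1 CPM against 22.4 and 25.8 CPM in WT. Macrophage markers were called lower for 3 of 6 tested and higher for 1, with sums of 34.4 and 34.6 CPM against 43.2 and 43.3 CPM, and 3 of 3 endothelial markers were called lower, with sums of at most 0.0406 CPM against 1.65 and 3.17 CPM. Their part in the result was not tested. Leaving out 1 of the 4 libraries reduced the 24 calls to between 17 and 20, with Ctps2, Aprt and Nme2 lost whichever library was left out. Such fits leave 1 library in a group, which is assumed to vary like the other groups, and gave Ctps2 at 0.31 to 0.32, Aprt at -0.45 to -0.54 and Nme2 at -0.41 to -0.59, against 0.31, -0.49 and -0.50 with all libraries. Adsl went from -0.31 to -0.20 without rescue Cxcl5-/- replicate 1 and was not called there (adjusted p = 0.276).

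Against Cxcl5-/- cells in the rescue table, both overexpressing lines had higher levels in every step class. In Hif1aOE Cxcl5-/- 30 members were called higher and 2 lower, against 20.6% and 15.0% of all genes, with a median of 0.73 over the members and 0.16 over all genes. In MycOE Cxcl5-/- 28 were called higher and 2 lower, against 21.6% and 18.0%, with medians of 0.89 and 0.11. Both comparisons share the same 2 Cxcl5-/- libraries, so their values are given side by side and their likeness is not a result. Without the rescue WT libraries in the fit, with only the groups compared, each gave 28 higher and 2 lower. Library totals moved the median of all genes to 0.00 for Hif1a and -0.11 for Myc and gave 22 higher and 2 lower for Hif1a and 23 higher and 4 lower for Myc. Shares of all genes with that scaling were not counted. S phase genes were called higher for 13 of 14 in each, with medians of 0.94 and 1.27, and 1 was called lower with Hif1a. Fibroblast markers were called lower for 4 of 5 with Hif1a and 3 of 5 with Myc, with sums of 29.2 to 45.2 CPM and 147.6 to 170.2 CPM against 269.6 and 271.1 CPM in Cxcl5-/-. Epithelial markers summed to 686.2 to 819.0 CPM with Hif1a and 243.8 to 287.2 CPM with Myc, against 258.0 and 271.7 CPM in Cxcl5-/-, with 4 of 5 tested called higher with Hif1a, 2 of 5 with Myc and 0 lower in either. Macrophage markers summed to 44.9 to 63.2 CPM with Hif1a and 59.7 to 76.7 CPM with Myc, against 34.4 and 34.6 CPM, with 2 of 6 tested called higher in each and 1 lower with Myc. The part of these genes in the result was not tested. The summed level of the members was 1755 and 1772 CPM in Cxcl5-/-, 2874, 3156 and 2595 CPM in Hif1aOE Cxcl5-/- and 3311, 3186 and 3162 CPM in MycOE Cxcl5-/-.

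Pyrimidine synthesis held the greatest increases with Myc. Ctps (ENSMUSG00000028633, chr4:120539868-120570276) was at 35.4 and 35.7 CPM in Cxcl5-/- and 117.1, 104.8 and 141.5 CPM in MycOE Cxcl5-/-, a rise of 1.77 ± 0.13 (adjusted p = 1.49e-06). In Hif1aOE Cxcl5-/- it was at 81.9, 87.2 and 72.5 CPM, a rise of 1.18 ± 0.13. Dhodh (ENSMUSG00000031730, chr8:109591343-109608673) was at 7.15 and 8.32 CPM in Cxcl5-/-, 24.6, 22.7 and 23.5 CPM with Myc and 14.5, 19.6 and 16.4 CPM with Hif1a. Its rises were 1.61 ± 0.14 (adjusted p = 4.66e-06) and 1.12 ± 0.14, and the 3 groups do not overlap. Ctps2 (ENSMUSG00000031360, chrX:162901238-163032508) differed in direction between the lines, with 52.5 and 52.7 CPM in Cxcl5-/-, 43.6, 38.9 and 38.8 CPM with Myc and 62.5, 63.3 and 59.9 CPM with Hif1a. It fell by 0.38 ± 0.08 with Myc and was called higher at 0.24 ± 0.08 with Hif1a, a call lost in 8 of 12 other settings.

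Deoxynucleotide enzymes rose in both lines for 6 of 7. With Myc, Dtymk was higher by 1.54 ± 0.13, Dctd by 1.52 ± 0.18 and Tyms by 1.47 ± 0.10, and with Hif1a the same genes were higher by 1.19 ± 0.13, 1.15 ± 0.18 and 1.04 ± 0.10. Rrm2b was the member that fell in both, from 41.3 and 40.3 CPM in Cxcl5-/- to 24.7, 20.9 and 23.2 CPM with Hif1a and 23.8, 24.4 and 25.9 CPM with Myc. The decreases were -0.83 ± 0.09 (adjusted p = 2.86e-05) and -0.72 ± 0.09 (adjusted p = 6.11e-05), with no overlap of either line with Cxcl5-/-. Rrm2 went up, from 52.6 and 49.2 CPM to 74.3, 89.8 and 79.6 CPM with Hif1a (0.67 ± 0.10) and 93.3, 102.6 and 104.3 CPM with Myc (0.97 ± 0.10).

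Salvage enzymes were called higher for 5 of 6 with Hif1a and 4 of 6 with Myc. Tk1 had the greatest rise of any member with Hif1a, from 21.8 and 19.8 CPM to 55.0, 70.5 and 55.9 CPM, or 1.54 ± 0.12 (adjusted p = 3.67e-06). With Myc it stood at 60.4, 57.0 and 52.5 CPM and rose by 1.44 ± 0.12. Tk2 fell with Hif1a, from 25.9 and 26.8 CPM to 19.2, 19.6 and 16.6 CPM, by 0.51 ± 0.11 (adjusted p = 0.00332). With Myc it stood at 24.4, 21.6 and 20.9 CPM and did not pass the test, at -0.24 ± 0.11. Aprt rose by 1.03 ± 0.17 with Hif1a and 1.25 ± 0.17 with Myc, and Dck by 0.50 ± 0.12 with Hif1a, while with Myc it was not called at 0.30 ± 0.12. With library totals the Hif1a calls of Dck, Hprt and Uck2 were lost, at 0.27, 0.24 and 0.20, and the Myc call of Uck2 at 0.27.

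All 4 nucleotide kinases rose in both lines, with class medians of 1.07 and 1.27. Nme2 (ENSMUSG00000020857, chr11:93949814-93956259) was at 143.0 and 164.0 CPM in Cxcl5-/-, 371.6, 482.5 and 320.0 CPM with Hif1a and 493.6, 445.2 and 379.1 CPM with Myc. Its rises were 1.35 ± 0.17 (adjusted p = 8.17e-05) and 1.52 ± 0.17 (adjusted p = 2.82e-05), and each line lay above Cxcl5-/- in every sample. Nme1 was at 66.5 and 71.3 CPM, at 158.2, 197.8 and 138.8 CPM with Hif1a and at 186.4, 170.3 and 140.2 CPM with Myc, and rose by 1.26 ± 0.15 in each.

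Purine synthesis rose for 10 of 12 enzymes in each line, with medians of 0.49 and 0.79. Prps1 was higher by 1.01 ± 0.11 with Hif1a and 1.27 ± 0.11 with Myc, from 18.1 and 16.8 CPM to 34.9, 39.2 and 31.5 CPM and to 38.8, 42.1 and 45.3 CPM. Impdh2 rose by 0.91 ± 0.11 and 1.40 ± 0.11, and Impdh1 by 0.43 ± 0.12 with Hif1a, while with Myc it was not called at 0.04 ± 0.12. The Impdh1 call with Hif1a was lost without rescue Cxcl5-/- replicate 2, at 0.28 (adjusted p = 0.218), without Hif1aOE replicate 1 (adjusted p = 0.0576) and with library totals, at 0.21 (adjusted p = 0.255). Gmps was called in neither, at 0.05 ± 0.08 and 0.06 ± 0.08. Prps2 was called with Myc at 0.31 ± 0.08, which turned to -0.02 with library totals. Its call was also lost without Cxcl5-/- replicate 1 or 2, where the value stayed at 0.33 and 0.31. Library totals also ended the Hif1a calls of Paics, Adsl and Adss, at 0.07, 0.14 and 0.14, which were lost in 7, 2 and 2 of 12 other settings in all. The Paics call was lost without either Cxcl5-/- library or without Hif1a replicate 1 or 2 (edgeR adjusted p from 0.0652 to 0.185), that of Adsl without Cxcl5-/- replicate 1 (adjusted p = 0.184) and that of Adss without Cxcl5-/- replicate 2 (adjusted p = 0.0501). Library totals ended the Myc calls of Pfas and Adss, at 0.27 and 0.04.

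**Figure D4:**
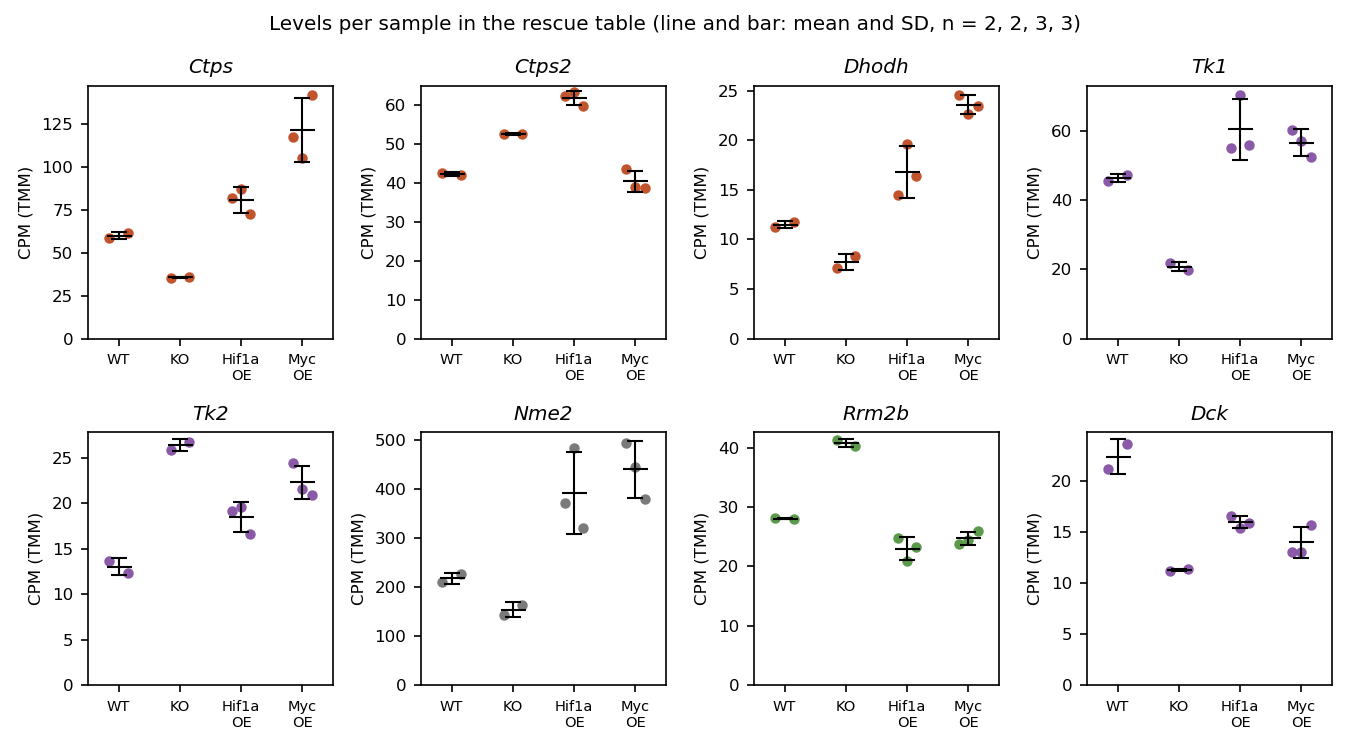
TMM-scaled level in CPM (vertical axis) of 8 enzymes in each sample of the rescue table (points, coloured by step class), with the mean and SD of 2, 2, 3 and 3 samples of WT, Cxcl5-/- (KO), Hif1aOE Cxcl5-/- and MycOE Cxcl5-/- cells. Ctps, Dhodh, Tk1 and Nme2 are lowest in KO, Rrm2b and Tk2 highest in KO, and Ctps2 is lower with Myc than with Hif1a.

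The 6 members with CACGTG in a promoter were all called higher in MycOE Cxcl5-/-, with log2 fold changes from 0.69 (Paics) to 1.54 (Dtymk) and a median of 1.33, and among the 25 matched members without it 20 were called higher and 1 lower, with a median of 0.88. In Hif1aOE Cxcl5-/- the medians were 0.98 with the letters and 0.60 without. Of all genes 21.6% were called higher with Myc and 20.6% with Hif1a. Without a transgene the medians with and without CACGTG were -0.84 and -0.45 in 3D WT against 2D WT. They were -0.48 and -0.41 in the libraries labelled 3D Cxcl5-/- against 3D WT, and -0.66 and -0.42 in rescue Cxcl5-/- against WT. With Hif1a, 12 of 12 members with ACGTG were called higher (median 0.90). Of 19 without it 16 were called higher and 1 lower (median 0.55). These are descriptions of small sets and nothing about binding follows from them.

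The overexpressing lines were also compared with each other. MycOE Cxcl5-/- had 10 members called higher and 2 lower than Hif1aOE Cxcl5-/-, against 9.54% and 9.74% of all genes, and library totals gave 8 higher and 3 lower. The median was 0.15 over the members and -0.01 over all genes. The members that were higher with Myc were led by Ctps at 0.59 ± 0.11, Adsl, the lyase of both IMP and AMP synthesis, at 0.52 ± 0.09, Impdh2 at 0.50 ± 0.10 and Dhodh at 0.49 ± 0.12. Ctps2 was lower with Myc at -0.62 ± 0.07 (adjusted p = 0.000105) and Impdh1 at -0.39 ± 0.11. The Impdh1 call was lost without Hif1aOE replicate 1 or without any 1 of the MycOE libraries, with an adjusted p of 0.0585 to 0.106 in edgeR, and that of Dhodh without Hif1aOE replicate 1 (adjusted p = 0.0542). S phase genes were called higher with Myc for 5 of 14 (median 0.26). Of 5 tested epithelial markers 3 were called lower with Myc and 0 higher, and of 5 fibroblast markers 1 was called higher and 2 lower. The sums do not overlap, at 243.8 to 287.2 CPM with Myc against 686.2 to 819.0 CPM with Hif1a for epithelial markers and 147.6 to 170.2 CPM against 29.2 to 45.2 CPM for fibroblast markers, and what they contribute was not tested. For Tk1 the difference of -0.09 ± 0.10 and for Rrm2b that of 0.11 ± 0.08 were not called.

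Against rescue WT, Hif1aOE Cxcl5-/- had 19 members called higher and 4 lower, when 13.9% and 10.3% of all genes were. This split varied with the scaling: DESeq2 size factors gave 12 higher and 7 lower, library totals 8 higher and 7 lower, genes averaging 1 CPM or more 12 higher and 8 lower, and the fits without rescue WT replicate 1 or 2 gave 8 higher and 2 lower, and 9 higher and 1 lower. Those fits leave 1 WT library, which is assumed to vary like the other groups, and the values that lost their call were of similar size, such as Cmpk1 at 0.45 and 0.40 against 0.41 with both. MycOE Cxcl5-/- had 20 higher and 3 lower, when 17.1% and 14.7% of all genes were, and library totals gave 14 higher and 8 lower. For both lines the shares of all genes were counted with TMM scaling alone. Adss was called lower than in WT at -0.45 ± 0.08 with Hif1a and -0.43 ± 0.08 with Myc, and Dck at -0.49 ± 0.11 and -0.68 ± 0.11. Impdh1 had the greatest decrease from WT with Myc, at 14.4, 14.8 and 13.4 CPM against 23.5 and 23.5 CPM, a change of -0.73 ± 0.12 (adjusted p = 0.00101), and with Hif1a it was not called at -0.34 ± 0.12. Nme1 was called higher than in WT at 1.05 ± 0.15 in each line. The call of Dck with Hif1a was lost without rescue WT replicate 2, at -0.39 (adjusted p = 0.153). Against rescue WT, 4 of 14 S phase genes were called higher and 0 lower with Myc, and 2 higher and 2 lower with Hif1a. With Myc 4 of 5 tested epithelial markers were called lower and 1 higher, with sums of 243.8 to 287.2 CPM against 822.4 and 864.3 CPM, and fibroblast markers summed to 147.6 to 170.2 CPM against 22.4 and 25.8 CPM, with 1 called higher and 2 lower. With Hif1a each of these marker lists had 1 call in each direction, and the fibroblast sums were 29.2 to 45.2 CPM. Macrophage markers summed to 59.7 to 76.7 CPM with Myc and 44.9 to 63.2 CPM with Hif1a against 43.2 and 43.3 CPM in WT, with 2 of 6 tested called higher in each and 1 lower with Hif1a. Their part in the result was not tested. All these comparisons share the 2 rescue WT libraries.

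The ratio within isozyme pairs, on levels per kb of exon, is free of the scaling of a library. Ctps over Ctps2 was 3.84, 4.04 and 4.20 in 2D WT, 2.65, 2.63 and 2.47 in 3D WT and 1.36, 1.39 and 1.29 in the libraries labelled 3D Cxcl5-/-. In the rescue table it was 1.95 and 2.08 in WT, 0.961 and 0.965 in Cxcl5-/-, 1.87, 1.96 and 1.72 with Hif1a and 3.83, 3.84 and 5.20 with Myc. The culture groups named do not overlap, and in the rescue table Myc lay above the rest while Hif1a overlapped WT. WT spheroids in control medium, in the media table, had 1.30, 1.18 and 1.39, which overlaps the libraries labelled 3D Cxcl5-/- and lies below 3D WT of the culture table. The study's methods describe less serum in the media of the media table than in the other 3D cultures, so table and medium cannot be told apart.

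Rrm2 over Rrm2b, the S phase against the p53-inducible small subunit, had the widest range of the 6 pairs. It was 48.1, 45.4 and 47.1 in 2D WT, 34.6, 33.8 and 31.4 in 2D Cxcl5-/-, 20.5, 15.5 and 20.7 in 3D WT and 6.07, 8.07 and 8.06 in the libraries labelled 3D Cxcl5-/-. Within the culture table each group lay below the one before it without overlap. WT spheroids of the media table had 7.25, 7.44 and 7.30 in Ctrl and 6.80 to 8.56 with M0-CM, which overlaps the libraries labelled 3D Cxcl5-/-, and 8.33, 8.95 and 9.41 with M1-CM, which lies above them. All 3 groups lay below 3D WT of the culture table, which was kept in a different medium, so that a low ratio was not particular to Cxcl5-/- samples. In the rescue table Cxcl5-/- had 4.20 and 4.03, against 12.5 and 12.1 in WT, 9.91, 14.2 and 11.3 with Hif1a and 12.9, 13.9 and 13.2 with Myc.

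Tk1 over Tk2, the cytosolic against the mitochondrial thymidine kinase, was 3.62, 3.43 and 3.57 in 2D WT, 2.34, 1.73 and 1.88 in 3D WT and 0.712, 0.820 and 0.858 in the libraries labelled 3D Cxcl5-/-. In rescue Cxcl5-/- it was 0.578 and 0.507, and 1.70 or more in every library of the other 3 groups. Prps1 over Prps2 was 1.05, 0.849 and 0.916 in 3D WT and 0.507, 0.510 and 0.546 in the libraries labelled 3D Cxcl5-/-, and 1.04 and 1.07 in rescue WT against 0.473 and 0.442 in rescue Cxcl5-/-. So 4 pairs had a lower ratio in the libraries labelled Cxcl5-/- than in WT in 3D, within both the culture and the rescue table. WT spheroids in Ctrl of the media table lay between the 3D genotypes of the culture table for Prps1 over Prps2, at 0.572 to 0.679, and at 1.29 to 2.13 for Tk1 over Tk2 they lay above the libraries labelled 3D Cxcl5-/- and overlapped 3D WT. Levels were not tested across tables.

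The other pairs behaved differently. Impdh1 over Impdh2 was 0.0977 to 0.108 in 2D WT and 0.187 to 0.199 in 3D WT, while the libraries labelled 3D Cxcl5-/- overlapped 3D WT at 0.137 to 0.237, and the lowest rescue values were with Myc, 0.0869 to 0.102. Nme1 over Nme2 was lowest in 3D WT, at 0.0772 to 0.0991, and the other culture groups lay between 0.134 and 0.153. Rescue WT, also 3D WT cells, had 0.136 and 0.122, above the 3D WT libraries of the culture table.

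**Figure D5:**
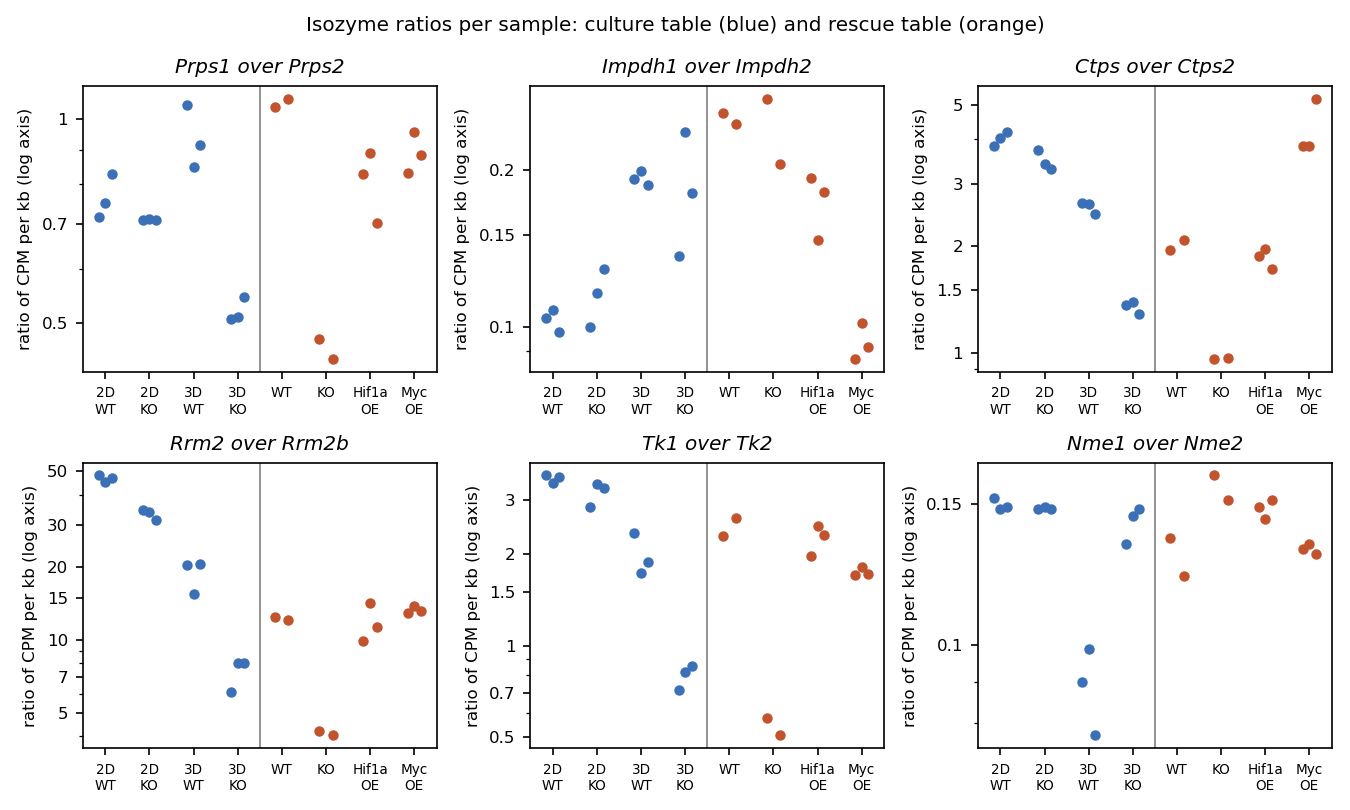
Ratio of 2 isozymes' levels per kb of exon (vertical log axis) in each sample of the culture table (blue) and the rescue table (orange). Each panel is one pair, and points are samples. Rrm2 over Rrm2b falls from 2D WT to the libraries labelled 3D KO, and Ctps over Ctps2 is highest with Myc within the rescue table.

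Conditioned medium gave 0 called members in each of the 3 comparisons. For M1-CM against Ctrl, 0.0156% of all 19207 genes were called, 2 members and 4.70% of all genes had an unadjusted p under 0.05 in edgeR, and the DESeq2 Wald test called 0 members. For M0-CM against Ctrl, 0% of genes were called, with 0 members and 2.96% of genes at an unadjusted p under 0.05, and for M1-CM against M0-CM 0.0156% were called, with 0 members and 2.59% of genes. The DESeq2 Wald test also called 0 members in both. Medians over the members were -0.20, -0.10 and -0.12, and 27 of 34 members were below 0 in each of these comparisons, which share their samples. Over all 19207 genes the medians were 0.01, 0.00 and -0.01, with 9269, 9723 and 9765 genes below 0, and S phase genes were below 0 for 13, 12 and 11 of 14. Cxcl5 itself went from 78.0 to 117.4 CPM in Ctrl to 662.0 to 718.6 CPM with M1-CM.

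Spread between media samples was wide. The members summed to 2586, 3465 and 2966 CPM in Ctrl, 2655, 3025 and 2766 CPM with M0-CM and 3027, 2058 and 2819 CPM with M1-CM, with all groups overlapping. Impdh1 had the greatest difference from Ctrl with M1-CM, 0.59 ± 0.23 (adjusted p = 0.965), with 20.0, 27.0 and 26.9 CPM against 20.0, 11.7 and 17.6 CPM. Rrm2b had 27.8, 24.8 and 26.5 CPM with M1-CM and 32.7, 40.2 and 30.2 CPM in Ctrl, groups that do not overlap, and was not called at -0.38 ± 0.15. On counts simulated for this table, edgeR called 2.00% of genes changed 1.5-fold, 22.0% of genes changed 2-fold and 94.0% of genes changed 4-fold, so that changes of 2-fold or less were mostly not detectable here.

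Lists of the neighbouring parts of the pathway gave mixed counts. Of 19 tested breakdown and nucleotidase genes, 7 rose and 5 fell in 3D WT against 2D WT (median -0.04), and for the libraries labelled 3D Cxcl5-/- against 3D WT 6 were called higher and 8 lower (median -0.21). Of 18 tested other kinases and pool-cleaning enzymes of nucleotides, such as the adenylate kinases and Itpa, 4 rose and 8 fell (median -0.40), and 2 were called higher and 6 lower (median -0.07). Only 3 of 7 nucleoside transporters had enough counts in the culture table, of which 1 rose and 0 fell, and 1 was higher and 1 lower. Of all genes 22.2% rose and 22.0% fell in 3D WT against 2D WT. For the libraries labelled 3D Cxcl5-/- against 3D WT 19.7% were called higher and 25.3% lower.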

How the data were processed

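RNA of 31 Panc02 samples was sequenced as stranded total RNA. The authors aligned reads with HISAT2 to mouse GRCm38 (mm10 in the labels), quantified genes with StringTie and deposited raw counts per gene in 3 tables, which are whole numbers and not normalised. The annotation release, tool versions and the strand setting of the counting are not given in the sources used here. Coordinates and exon lengths came from GENCODE M21 (GRCm38), with genes matched by Ensembl ID.

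Each table was fitted on its own in edgeR 4.0.16 (R 4.3.3), with all its groups in one quasi-likelihood model, TMM scaling and the filterByExpr filter, which left 19207, 21367 and 28730 genes. P-values were adjusted by Benjamini-Hochberg over all genes tested and called under 0.05. Levels were TMM-scaled CPM, and per kb values were divided by the union of exons. Alternatives were DESeq2 1.42.0 (size factors and Wald test), library totals, no filter, only the groups compared, a replicate block, each sample left out and, chosen after seeing the data, genes averaging 1 CPM or more. The procedure was tested on simulated counts, where each fold size was given to 50 genes at 4 CPM or more. These are fewer changed genes than were called in 3D WT against 2D WT or rescue Cxcl5-/- against WT, so the rates describe that setting. For 3D WT against 2D WT it called 64.0% of genes changed 1.5-fold and 96.0% of those changed 2-fold, with 3.23% of all calls false. For rescue Cxcl5-/- against WT these were 38.0%, 78.0% and 7.06%, the last above the 0.05 aimed at, and for M1-CM against Ctrl 5.22% of calls were false. No libraries were identical. Tables were prepared in Python 3.11.15 with pandas 2.3.3 and numpy 2.4.6.

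The rule for the members uses gene names and no measured value, but members and lists were drawn up with earlier results of these data known. Genes given per sample were those with the greatest changes by comparison and the isozyme pairs. Further genes were named for their role in the pathway after their values were seen. Total counts of 41542533 to 78498230 per sample set the counting precision, and intervals for counting error were not needed since each group was compared over samples. Lists of acinar, macrophage and endothelial markers were also summed. Acinar sums were at most 2.81 CPM, endothelial sums at most 3.17 CPM and macrophage sums 28.0 to 76.7 CPM. In the 12 culture libraries Adgre1 was at 0 in all, Itgam in 11 and Ptprc in 7, while Cd14 (26.1 to 42.7 CPM), Lyz2, Cd68 and Csf1r were detected in all 12.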

Additional observations from a re-analysis of the deposited data

Results flagged for a closer look

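For 17 of the 34 enzymes the difference between the libraries labelled Cxcl5-/- and WT in 3D differed from that in 2D, by the interaction term of edgeR at an adjusted p under 0.05. The difference was lower in 3D for 16 and higher for 1, when 16.1% and 11.1% of all 21367 genes were. Library totals gave 10 lower and 5 higher, and shares of all genes with that scaling were not counted. The values are the 3D minus the 2D difference on the log2 scale, and rest on the libraries labelled 3D Cxcl5-/-. In purine synthesis they were -1.01 for Prps1, -0.98 for Impdh1, -0.75 for Impdh2, -0.47 for Paics, -0.43 for Adss and -0.30 for Gmps. In pyrimidine synthesis they were -0.81 for Dhodh, -0.71 for Ctps and 0.40 for Cad. In deoxynucleotide synthesis they were -1.08 for Rrm2, -0.92 for Rrm1 and -0.55 for Tyms. In salvage they were -1.17 for Dck, -1.05 for Tk1, -0.84 for Hprt and -0.76 for Aprt. Among nucleotide kinases the value was -0.36 for Cmpk1, a call lost in 14 of 18 other settings, and those of Cad, Gmps, Paics and Adss were lost in 9, 8, 6 and 3. With library totals the value of Cmpk1 was 0.00, that of Paics -0.11, that of Adss -0.07 and that of Gmps 0.07. The calls of Tyms and Impdh1 were lost with library totals, at -0.19 (adjusted p = 0.287) and -0.60 (adjusted p = 0.0583). By the same term S phase genes were called lower for 11 of 14 and higher for 1. Epithelial markers were called lower for 2 of 4 tested and higher for 0. Fibroblast markers were called higher for 1 of 5 and lower for 0 (median 3.76). What these genes contribute was not tested.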

How the results depend on the processing

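For members called in a comparison, of 3218 values under other settings 2910 kept direction and call, 300 kept the direction but lost the call and 8 changed sign, all 8 with library totals. Members that were not called are not counted in these. The 8 were Ppat 0.03, Pfas 0.01, Umps 0.10, Dtymk 0.07, Dut 0.06 and Guk1 0.03 in the libraries labelled 3D Cxcl5-/- against 3D WT, Gmps 0.07 in the interaction and Prps2 -0.02 in MycOE against Cxcl5-/-. That scaling does not correct for the share taken by the most counted genes. For 2D Cxcl5-/- against 2D WT the 5 calls became 2 with no filter and 1 to 2 with 1 sample left out. For Hif1aOE Cxcl5-/- against rescue WT the 23 calls became 15 with library totals and 10 to 22 with 1 sample left out, 10 without either rescue WT library. The cause was not tested. Left-out samples gave 25 to 27 calls in 3D WT against 2D WT and 23 to 27 in the libraries labelled 3D Cxcl5-/- against 3D WT. They gave 32 to 33 in 3D against 2D, both labelled Cxcl5-/-, 12 to 22 in the interaction and 8 to 16 in MycOE against Hif1aOE.

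Same-numbered samples shared little deviation on average: the mean correlation of same-numbered deviations was 0.0369 in the media table, 0.0247 in the culture table and 0.00408 in the rescue table. In the media table the 9 values ran from -0.236 to 0.359, with 3 over 0.1, so the mean does not settle whether samples were paired there. With the replicate number as a block, calls were 27 in 3D WT against 2D WT, 5 in 2D and 27 in the libraries labelled 3D Cxcl5-/- against 3D WT. They were 33 in 3D against 2D, both labelled Cxcl5-/-, 16 in the interaction and 24 in rescue Cxcl5-/- against WT. For Hif1aOE and MycOE they were 32 and 30 against Cxcl5-/-, 13 between the lines, and 21 and 26 against WT. Each media comparison had 0. Every member had enough counts to be tested in each table.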
